A study of Mus musculus with 32 samples.

Results

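Cassette exons whose length is not a multiple of 3 were followed through the knockdown of SRSF1 to SRSF7 in P19 cells, a mouse embryonal carcinoma line. They were taken from the exon-bin tables, in which every gene is cut into bins at the ends of its annotated exons. An exon counted as a member if it was a bin of its own, of at least 28 nt, if at least 1 transcript with bins on both sides of it lacked it, and if it was not the first or last exon of any transcript. This gave 5818 frame-shifting cassette exons in 3633 genes, of 354841 bins in 37223 gene IDs, and 4908 frame-preserving exons met the same rule with a length divisible by 3. Each knockdown ran for 36 h with an esiRNA, which is a mixture of siRNAs cut enzymatically from a long RNA of the target's sequence, and the control cells of every comparison received an esiRNA against GFP. Whole cells and the cytoplasmic fraction of each of the 8 groups gave poly(A)+ RNA for sequencing, in replicates A and B, which makes 32 libraries. The targets were depleted in part: between 35.8% and 72.7% of the target's mRNA was left in the cytoplasm and between 47.5% and 63.7% in the whole cell. The cells have no deleted gene, all 7 knockdowns share the same control libraries, and residual protein was not measured in these files.

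A cassette exon is included in some mature mRNAs of a gene and skipped in others. Where its length is not divisible by 3, the 2 mRNAs are read in different frames downstream of it, so that at most 1 of them usually encodes the full protein, unless another exon restores the frame. Such an mRNA often meets an early stop codon, and one that lies well upstream of the last exon junction is a signal for nonsense-mediated decay, which destroys the mRNA when it is translated in the cytoplasm. Exons that bring in an early stop are called poison exons, and SR proteins, which bind exonic RNA and help the spliceosome to choose splice sites, are known to use them to control their own levels.

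The exons that are described most fully below can be read from their sequences. For 3 exons that hold a stop codon, the sequence runs from the exon's first base to that stop, in capitals. The sequences of this section come from GENCODE M1 transcripts of the NCBIM37 assembly, matched by transcript ID and exon lengths, and the exon positions are those of the deposited tables, on mm10.
Tmem57, chr4:134836767-134837034, minus strand: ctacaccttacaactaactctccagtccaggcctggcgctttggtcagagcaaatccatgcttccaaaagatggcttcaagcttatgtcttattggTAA
Nipsnap1, chr11:4882901-4883171, plus strand: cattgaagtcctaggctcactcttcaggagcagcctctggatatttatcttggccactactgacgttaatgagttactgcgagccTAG
Smarcc1, chr9:110236716-110236828, plus strand: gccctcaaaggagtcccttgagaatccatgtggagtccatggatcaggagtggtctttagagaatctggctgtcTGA
Tmem57 and Nipsnap1 carry their exon only in transcripts annotated as targets of decay, and 169 and 183 bases of the exon follow the stop. The Smarcc1 exon holds the stop codon of a transcript annotated as protein-coding, and 36 bases of the exon follow it.

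For 4 coding exons, leaving the exon out opens another reading frame with a stop of its own. Here the sequence is the new reading frame, from the codon that spans or follows the new junction to the stop in capitals.
Guf1 without the 140-nt exon at chr5:69563083-69563222, plus strand: ttgagtgtaccctatagaccaatcTGA
Odf2 without the 101-nt exon at chr2:29923539-29923639, plus strand: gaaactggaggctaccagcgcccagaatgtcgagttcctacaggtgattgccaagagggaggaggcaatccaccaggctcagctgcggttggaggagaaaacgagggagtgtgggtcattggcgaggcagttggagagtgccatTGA
Nadk without the 158-nt exon at chr4:155587861-155588018, plus strand: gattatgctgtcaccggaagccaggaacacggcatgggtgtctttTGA
Mpzl1 without the 106-nt exon at chr1:165601750-165601855, minus strand: ggggcccagtcatttacgcacagtTAG
The new stop lay 769 bases before the last exon junction in Guf1, 142 in Odf2 and 36 in Nadk, while in Mpzl1 it lay in the last exon. Only the stops of Guf1 and Odf2 are thus more than 50 bases upstream of the last junction, the distance used below for an early stop.

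In U2af1, which encodes the small subunit of the factor that recognizes 3′ splice sites, 2 exons of 67 nt stand in each other's place, and no annotated transcript holds both. The bases in which they differ, 23 in all, are in capitals.
U2af1 exon 3, chr17:31652502-31652568, minus strand: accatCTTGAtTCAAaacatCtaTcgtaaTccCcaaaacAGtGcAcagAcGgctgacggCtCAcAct
U2af1 downstream partner, chr17:31651646-31651712, minus strand: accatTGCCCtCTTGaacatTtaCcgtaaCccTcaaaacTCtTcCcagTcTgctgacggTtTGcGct

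Most frame-shifting exons lie inside coding sequence, where deleting the exon by itself from its transcript mostly gave an early stop. A matched transcript was found for 5487 of the 5818 exons. Of all 5818, 3214 were coding, 932 occurred only in other non-coding transcripts, 615 lay in a 5′ UTR, 478 occurred only in transcripts annotated as decay targets, 162 held a start codon and 68 a stop codon. Removal of a coding exon from its transcript gave a stop more than 50 bases before the last junction in 2620 of 3214 exons (81.5%), against 21 of 3457 (0.607%) for frame-preserving coding exons, a contrast that the choice by length fixes. Of the 478 exons found only in decay targets, 198 held the stop codon themselves. These stops follow from deletion of the exon alone, which is not what every annotated skipping transcript does. The skipping transcript joined the same neighbors in 3151 cases, and in 857 another exon or other exons kept the frame. In 1150 the exon was skipped with others or replaced, with the frame shifted, and in 660 no transcripts shared exons on both sides. The exons were short, with quartiles of 80, 112 and 152 nt, and the longest had 9659 nt. In 659 exons no library held a read, and 598 belong to joined gene IDs, in which the tables merge overlapping genes.

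The libraries held 41417374 to 72741730 reads in bins in the cytoplasm (median 53382957) and 38874542 to 59470730 in the whole cell (median 44557181). All 8 markers of pluripotent P19 cells were expressed. Markers of differentiated derivatives (11 genes, 2 of them with a mean below 10) summed to 11023 to 16239 scaled reads in the cytoplasmic A libraries, 26159 to 33837 in the cytoplasmic B libraries and 6202 to 23009 in the whole cell. An SRSF3 library was lowest for both lists in the whole cell and in the cytoplasmic A libraries. Markers of other tissues (4 genes, among them the pancreatic protease genes Cela2a, Prss1 and Ctrb1) summed to 1450 to 2100 scaled reads in the cytoplasmic A libraries of 7 groups, controls included, against 25.8 in that of the SRSF2 knockdown, 15.6 to 29.7 in the cytoplasmic B libraries and 5.81 to 18.1 in the whole cell. Their part in the results was not tested. The submitters' design text speaks of biological and of technical replicates, and the paper's methods name biological replicates. The labels give only the letters, so p-values measure the spread between these libraries, pooled over the bins of a gene ID. In such bulk samples fewer cells that use an exon and less use per cell cannot be told apart.

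The share of mRNAs that carried an exon followed its annotated place. As a measure of it, relative inclusion is the reads per length of the exon as a percent of those of the nearest exons on either side that no transcript skips, which can exceed 100% where the neighbors are covered less. In the control this could be computed for 1416 frame-shifting exons in the cytoplasm, with a median of 57% and quartiles of 2.28% and 106%, and for 1417 in the whole cell, with a median of 57.6% and quartiles of 5.98% and 107%. The distribution was wide: in the cytoplasm 33.2% of these exons were below 10% and 32.1% above 90%. Frame-preserving exons had medians of 49.4% and 49.8% in cytoplasm and whole cell.

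Exons of transcripts annotated as decay targets were low throughout and lower in the cytoplasm. The median over these 166 exons was 0.505% to 1.5% in the 16 cytoplasmic libraries (median 0.738%), against 2.64% to 3.77% in the 16 whole-cell libraries (3.25%), so that the fractions did not overlap. The 177 exons of other non-coding transcripts had medians of 0% to 0.795% in the cytoplasm, against 1.5% to 2.49% in the whole cell. In the 5′ UTR (124 exons) the medians were 1.42% to 3.74% in the cytoplasm, against 4.29% to 6.33% in the whole cell. Coding exons (835) did not show this gap, at 88.4% to 92.4% in the cytoplasm, against 88.2% to 92.1% in the whole cell. Frame-preserving exons of decay-target transcripts had the gap as well, at 0% to 1.35% in the cytoplasm, against 1.87% to 3.55% in the whole cell. Those of other non-coding transcripts were at 0% to 0.934%, against 1.83% to 3.08%. For frame-preserving exons of the 5′ UTR the ranges overlapped, at 0.239% to 4.64%, against 2.64% to 5.88%. Within the cytoplasm the frame-shifting decay exons stood highest after SRSF3 knockdown, at 1.5% in A and 1.12% in B, against 0.586% and 0.701% in the control. In the whole cell they were at 3.46% and 3.36% after SRSF3 knockdown, inside the control's range of 3.71% and 3%.

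**Figure D1:**
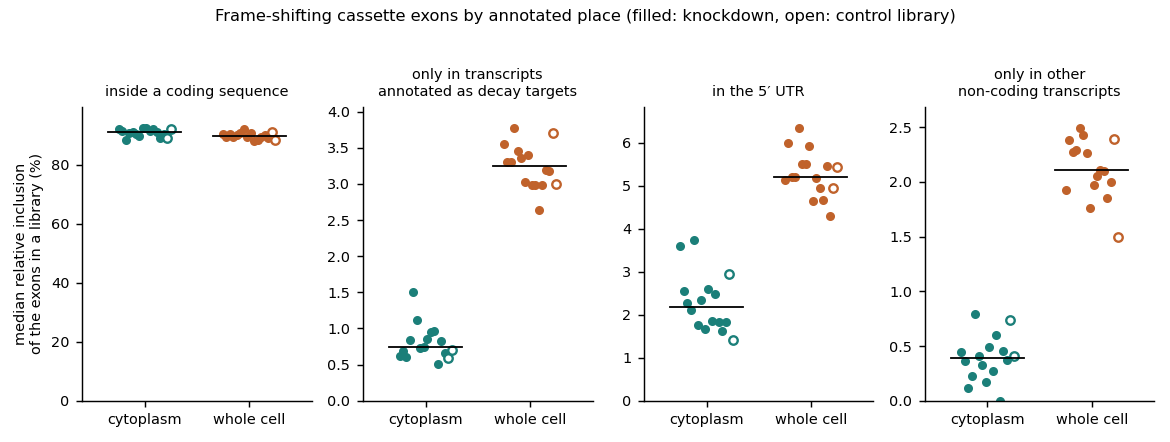
Median relative inclusion (%, vertical axis) of frame-shifting cassette exons in each of the 32 libraries, for 4 annotated places. Filled points are knockdown and open points control libraries, and the bars are medians over 16 libraries. In decay-target exons the cytoplasmic libraries sit at 0.505% to 1.5%, all below the whole-cell libraries at 2.64% to 3.77%, while coding exons sit near 90% in both fractions.

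To ask which exons differ between the fractions, exon usage was tested. Usage here is the level of an exon relative to the other bins of its gene ID, fitted on log2(scaled reads + 1) with limma's diffSplice, and an exon is called at an adjusted p below 0.1 (Benjamini-Hochberg over all bins tested with a mean of at least 5). Over all 32 libraries 1289 of 2791 members tested were called between cytoplasm and whole cell, 431 higher and 858 lower in the cytoplasm. Of all bins 46.7% were called, 21.4% higher and 25.2% lower, so the members' 1289 (46.2%) stood near this background. Of the members 15.4% were higher and 30.7% lower, and of the frame-preserving exons 15.6% were higher and 29.8% lower. Among the decay-target exons 73 of 109 were called lower (67%) and 6 higher, with a median log2 change of -0.84, and among those of other non-coding transcripts 73 of 128 were lower (57%), with a median of -0.47. In the 5′ UTR 58 of 130 were lower (44.6%, median -0.34). Coding exons were called lower in 588 and higher in 355 of 2191 cases (26.8% and 16.2%, median -0.06). The A libraries gave 924 calls, and the B libraries, with 15.6 to 29.7 scaled reads of other-tissue markers in the cytoplasm, gave 1298. The 4 control libraries by themselves gave 305. The share of all bins called in these smaller fits is not given here, so their counts cannot be set against a background.

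Falls in the cytoplasm included exons of decay-target transcripts in 3 RNA-binding protein genes, Hnrnpl, Luc7l2 and Son. Hnrnpl encodes a splicing regulator known to feed back on its own mRNA, and its 70-nt exon at chr7:28817335-28817404, present only in decay-target transcripts, had a relative inclusion of 1.19% to 4.63% in the cytoplasm (median 2.38%), against 8.21% to 16.7% in the whole cell (12.4%). The 2 ranges did not overlap, and usage was lower by a log2 of -2.27 (SE 0.13, limma adjusted p = 1.33e-57). In Luc7l2, which encodes a U1 snRNP-associated protein, the 68-nt decay-target exon was at 0% to 23.5% in the cytoplasm (median 8.71%), against 45.5% to 109% in the whole cell (84.9%; log2 -2.25, SE 0.33, adjusted p = 3.46e-10). The 80-nt exon of Son, an SR-related gene needed for splicing of weak introns, was at 0% to 21.8% in the cytoplasm (median 10.2%), against 41.2% to 99.1% in the whole cell (56%; log2 -1.60, SE 0.25, adjusted p = 3.69e-09). In all 3 exons every cytoplasmic library was below every whole-cell library. For Luc7l2 and Son the cytoplasmic values rest on few reads. In the knockdown comparisons only 2 or 3 members of the list of SR proteins and related genes reached a mean of 5 in the cytoplasm, against 8 in the whole cell. Of these, 2 lie in Rnps1, so that Luc7l2, Son or both stayed below a mean of 5. In the list of SR proteins and related genes 8 members were tested and 6 called lower, where 25.2% of all bins were called lower. The members called lower included Thrap3 (log2 -1.99, SE 0.36, adjusted p = 4.18e-07) and Rbm39 (log2 -1.14, SE 0.27, adjusted p = 9.73e-05). Luc7l3 was the only one called higher in the cytoplasm (67-nt coding exon, log2 0.73, SE 0.27, adjusted p = 0.0216). Its relative inclusion spread from 0% to 101% in the cytoplasm (median 76.8%) and from 56% to 73.3% in the whole cell (61.9%), so that here the fractions overlapped.

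Several other large differences between the fractions ran along whole stretches of a gene. The 10 largest rises with a mean of at least 50 included 5 neighboring exons of Mdn1, a ribosome assembly ATPase gene, exons 97 to 101 of 102, with log2 changes of 1.45 to 1.93, and 2 of Usp34, a deubiquitinase gene, exons 74 and 75 of 80. Set against its own neighbors, exon 75 of Usp34 had overlapping ranges, with a relative inclusion of 39% to 113% in the cytoplasm (median 61.9%), against 46.7% to 76.7% in the whole cell (61.1%). Camta1, a transcription factor gene, gave the highest rise (70-nt exon 2 of 37, log2 2.40, SE 0.14, adjusted p = 8.63e-57) with a relative inclusion of 18.4% to 40.4% in the cytoplasm (median 34.6%), against 23.7% to 46.9% in the whole cell (33.5%). These ranges overlapped too, whereas usage is read against all bins of the gene. The other 2 rises lay in joined gene IDs (Mrps6 with Slc5a3, and Strada with Ccdc47). Of the 10 largest falls 8 were exons 26 to 33 of the joined gene ID of Emc1 and Ubr4, where a change in the balance of the 2 genes and a change in exon use cannot be told apart, and the others were Cux1 (log2 -2.57) and the Hnrnpl exon.

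The knockdowns changed few frame-shifting exons, most of them after SRSF1 or SRSF3 knockdown. Over the 14 comparisons with the control, limma made 54 calls, in 46 exons of 45 gene IDs, of which 33 were higher and 21 lower. After SRSF1 knockdown 5 of 2318 members were called in the cytoplasm, where 0.175% of all bins were called, and 18 of 2913 in the whole cell, where 0.314% were. For SRSF3 the counts were 11 of 2408 in the cytoplasm (0.48% of all bins) and 14 of 2948 in the whole cell (0.384%). SRSF2 gave 0 of 2240 in the cytoplasm (0.0139% of all bins) and 4 of 2909 in the whole cell (0.107%), and SRSF7 1 of 2286 (0.0484%) and 1 of 2955 (0.072%). As a share of the exons tested, members were called at 0.216% and 0.618% for SRSF1 and at 0.457% and 0.475% for SRSF3, cytoplasm and whole cell. Frame-preserving exons were called at 0.777% and 1.34% for SRSF1 and at 0.424% and 0.786% for SRSF3. The difference between the 2 kinds of exon was not tested.

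**Figure D2:**
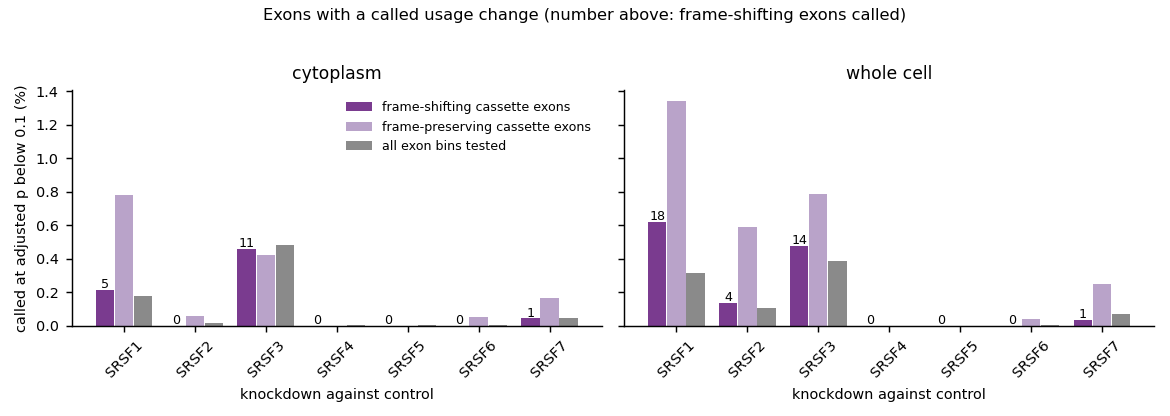
Percent of exons called at an adjusted p below 0.1 (vertical axis) in each knockdown against the control, in the cytoplasm (left) and the whole cell (right). Dark bars are frame-shifting and light bars frame-preserving cassette exons, grey bars all exon bins tested, and the number above a dark bar is its count of exons. SRSF1 in the whole cell, with 18 exons, and SRSF3, with 14 and 11, stand above the others.

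After SRSF1 knockdown 14 of the 18 members called in the whole cell were higher and 4 lower. By place, 7 were coding, 5 occurred only in decay-target transcripts and 2 only in other non-coding transcripts, 1 lay in a 5′ UTR, 1 held a start codon and 2 had no matched transcript. The 139-nt exon 9 of Nf2 (merlin, a tumor suppressor at the cell membrane), present in decay-target transcripts only, had 10 and 11 reads after knockdown, against 1 and 2 in the control. Its relative inclusion was 10.8% and 12.4% in knockdown A and B, against 0.821% and 1.7% in control A and B (log2 2.59, SE 0.56, limma adjusted p = 0.012), and its share of the gene's reads was 9.23 times that of the control, with a 95% interval of 2.75 to 48.3 from counting error. The poison exon of Tmem57, the macoilin gene, whose sequence is given above, was at 50.4% and 37.8%, against 15.3% and 18.9% (log2 1.23, SE 0.21, adjusted p = 6.13e-04). Sympk, whose product is a scaffold of mRNA 3′ end processing, had its 74-nt decay-target exon at 5.61% and 8.52%, against 2.87% and 1.11% (log2 1.81, SE 0.47, adjusted p = 0.084). All 3 genes had a lower total after the knockdown, at 0.761 (Nf2), 0.826 (Tmem57) and 0.754 (Sympk) of the control's scaled reads. The total of Cep89, whose decay-target exon also rose, is not given. Gene totals, here and below, were not tested, and neither was a link between them and the exons.

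Coding and 5′ UTR exons were raised as well. C2cd5, a gene of membrane trafficking, had its 125-nt exon at 18.2% and 30% after SRSF1 knockdown, against 5.31% and 4.22% in the control (log2 2.23, SE 0.36, adjusted p = 1.37e-04). The second 172-nt exon of Far1, a fatty acyl-CoA reductase gene, was at 22.9% and 12.8%, against 5.39% and 5.79% (log2 1.39, SE 0.35, adjusted p = 0.0767). Exons in unmatched transcripts of Uba2, a SUMO-activating enzyme gene (14.2% and 9.65%, against 2.61% and 2.39%; log2 2.06, SE 0.37, adjusted p = 6.07e-04), and of the joined Foxp1 and Eif4e3 gene ID (24.6% and 19%, against 10.1% and 7.76%; log2 1.22) also rose. Sdcbp, which encodes syntenin, had 18 and 9 reads in its 169-nt 5′ UTR exon, against 1 and 3 (log2 2.18, SE 0.54, adjusted p = 0.0778, and 0.147 with the replicate letter as a block). Smaller rises were called in Nfasc, Mmadhc, the 91-nt exon of Ogdh, Cep89 (decay-target exon, log2 0.99), Cttn (0.91) and Rnf14 (0.67).

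The 4 falls after SRSF1 knockdown in the whole cell were in Tamm41, Ube2j2, Guf1 and the 103-nt exon of Ogdh. Ube2j2 encodes a ubiquitin-conjugating enzyme of the endoplasmic reticulum, and its 163-nt exon with the start codon was at 17.3% and 23.8%, against 37.7% and 36.7% (log2 -0.93, SE 0.18, adjusted p = 0.00257). The Guf1 exon, whose loss brings in the early stop shown above, was at 73.8% and 49.8%, against 92.1% and 79.9% (log2 -0.82, SE 0.20, adjusted p = 0.0584), and Guf1, a mitochondrial translation GTPase gene, had 0.886 of the control's scaled reads. Tamm41, a gene of cardiolipin synthesis, had its decay-target exon at 1.32% and 3.63%, against 8.44% and 6.55% (log2 -1.69, SE 0.42, adjusted p = 0.0695, and 0.161 with the block). With 1 knockdown library left out the count of 18 became 4 (A dropped) or 8 (B dropped), and with 1 control library left out 9 or 5. edgeR on recovered reads called 12, where it called 422 of 178976 bins in all. For fits with a library left out, here and below, the share of all bins called is not given. A shift of all bins and a shift of the members therefore cannot be told apart in them.

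In the cytoplasm SRSF1 knockdown changed 5 members, 2 of which had also risen in the whole cell. Mmadhc, a vitamin B12 metabolism gene, has an 86-nt exon found only in a non-coding transcript, and it was at 32.2% and 24.7% in the knockdown cytoplasm, against 11.2% and 9.61% in the control (log2 1.54, SE 0.28, limma adjusted p = 0.00388). In the whole cell it was at 32.4% and 41%, against 17.6% and 13.9% (log2 1.35, SE 0.31, adjusted p = 0.0293). The 116-nt coding exon of Nfasc, which encodes the cell adhesion protein neurofascin, was at 219% and 207% of its neighbors in the cytoplasm, against 86.3% and 90.6% (log2 1.25, SE 0.23, adjusted p = 0.00214), and at 209% and 157%, against 85% and 71.7%, in the whole cell (log2 1.10, SE 0.29, adjusted p = 0.0966). These were the only members called after SRSF1 knockdown in both fractions, and both rose.

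The 3 falls in the cytoplasm were in Mest, Prrc2b and Hnrnpl. Hnrnpl's poison exon was at 1.28% and 1.24%, against 2.41% and 3.39% (log2 -1.12, SE 0.27, adjusted p = 0.0868), the sole member of the list of hnRNP and tissue splicing regulators called in any knockdown (18 tested here). The 82-nt exon of Prrc2b, an RNA-binding protein gene, was at 12.3% and 12%, against 27.1% and 31.7% (log2 -1.44, SE 0.28, adjusted p = 0.00247). Mest, an imprinted gene, had 7 and 4 reads in its 104-nt exon, against 17 and 11 (log2 -1.69, SE 0.38, adjusted p = 0.0549). With the replicate letter as a block 23 members were called (0.908% of all bins), while edgeR called 0 (61 of 149585 bins in all). By edgeR 62 members had an unadjusted p below 0.05 (2.65%, against 1.41% of all bins), and by limma 117 (5.05%, against 3.31%). Dropping knockdown A left 1 call and dropping knockdown B 13, while dropping control A left 2 and control B 1.

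SRSF3 knockdown in the whole cell raised 7 members and lowered 7. Smarcc1 encodes BAF155, a core subunit of the BAF chromatin remodeling complex, and its 113-nt exon with the alternative stop had 60 and 84 reads in the knockdown, against 8 and 18 in the control. Its relative inclusion was 15.3% and 16.3%, against 2.23% and 4.49% (log2 2.33, SE 0.26, limma adjusted p = 9.11e-09). It was the one call of the 54 that was kept under every alternative tried, each left-out library included. In the cytoplasm the exon was at 6.03% and 5.29% after SRSF3 knockdown, against 2.5% and 3.74%, and this comparison did not pass.

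The other rises after SRSF3 knockdown were spread over noncoding and coding places. In the joined gene ID of ENSMUSG00000045750 and Lrrc8d, a volume-regulated channel subunit gene, the 2159-nt exon with the start codon had 20 and 22 reads after knockdown and 0 and 0 in the control, at least 15.4-fold higher as a share of the gene's reads when 3 reads are set for the control group. The 118-nt 5′ UTR exon of Ctnnd1, which encodes p120 catenin, was at 72% and 78.8%, against 33.6% and 15.4% (log2 1.55, SE 0.34, adjusted p = 0.0127), while the gene's total was 1.43 times that of the control. Ehbp1l1 (log2 1.96, SE 0.38, adjusted p = 0.00991) and Ntmt1, a protein N-terminal methyltransferase gene (log2 1.23, SE 0.31, adjusted p = 0.0859), had too few reads in flanking exons for a relative inclusion. Actn4 and Cttn made up the remaining 2. Cttn encodes cortactin, an actin-binding protein, and its 85-nt exon of a non-coding transcript rose after SRSF3 knockdown (13.8% and 13.1%, against 9.14% and 5.99%; log2 0.85, SE 0.20, adjusted p = 0.0332) and after SRSF1 knockdown (12% and 18%; log2 0.91, SE 0.23, adjusted p = 0.0839). Both comparisons use the same 2 control libraries.

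Among the falls after SRSF3 knockdown were coding exons that most mRNAs of the control carried. Nadk encodes NAD kinase, the enzyme that makes NADP, and its 158-nt exon was at 28.2% and 43.2% in the knockdown, against 62.8% and 70.9% in the control (log2 -0.89, SE 0.21, limma adjusted p = 0.0337). In the cytoplasm the Nadk exon was at 26.8% and 41.5%, against 67.1% and 69.7% (log2 -0.90, SE 0.21, adjusted p = 0.0219). Across the other 6 knockdowns it stayed between 62.8% and 82.3%. Skipping leads to the stop shown above, 36 bases before the last junction, and Nadk totals were 1.17 and 1.06 times the control's in cytoplasm and whole cell. Mpzl1, which encodes a cell surface glycoprotein, had its 106-nt exon at 31.4% and 45%, against 74.9% and 83.1% (log2 -1.11, SE 0.22, adjusted p = 0.0291). Prepl, a peptidase-like gene, had its 536-nt exon with the start codon at 46.1% and 59.1%, against 78.6% and 71.5% (log2 -0.79, SE 0.16, adjusted p = 0.00996).

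Rab12 and Kars showed the deepest losses. The 190-nt exon of Rab12, a small GTPase gene of vesicle traffic, occurs only in a non-coding transcript and was at 3.31% and 4.13% in the whole cell, against 22.4% and 16.3% (log2 -2.23, SE 0.42, adjusted p = 0.0058). In the cytoplasm it was at 4.54% and 4.02%, against 17% and 12.3% (log2 -1.61, SE 0.36, adjusted p = 0.0443). Rab12 totals moved the other way, to 2.5 times the control in the cytoplasm and 1.88 times in the whole cell. Kars encodes lysyl-tRNA synthetase, whose cytosolic and mitochondrial forms come from alternative splicing of the same gene. Its 58-nt exon 2, in the 5′ UTR of the matched transcript, was at 5.2% and 9.42% in the whole cell, against 18.5% and 20.5% (log2 -1.47, SE 0.22, adjusted p = 1.11e-04). Dropping knockdown A turned the count of 14 into 6, dropping knockdown B into 20, and dropping either control library into 2. edgeR called 10.

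**Figure D3:**
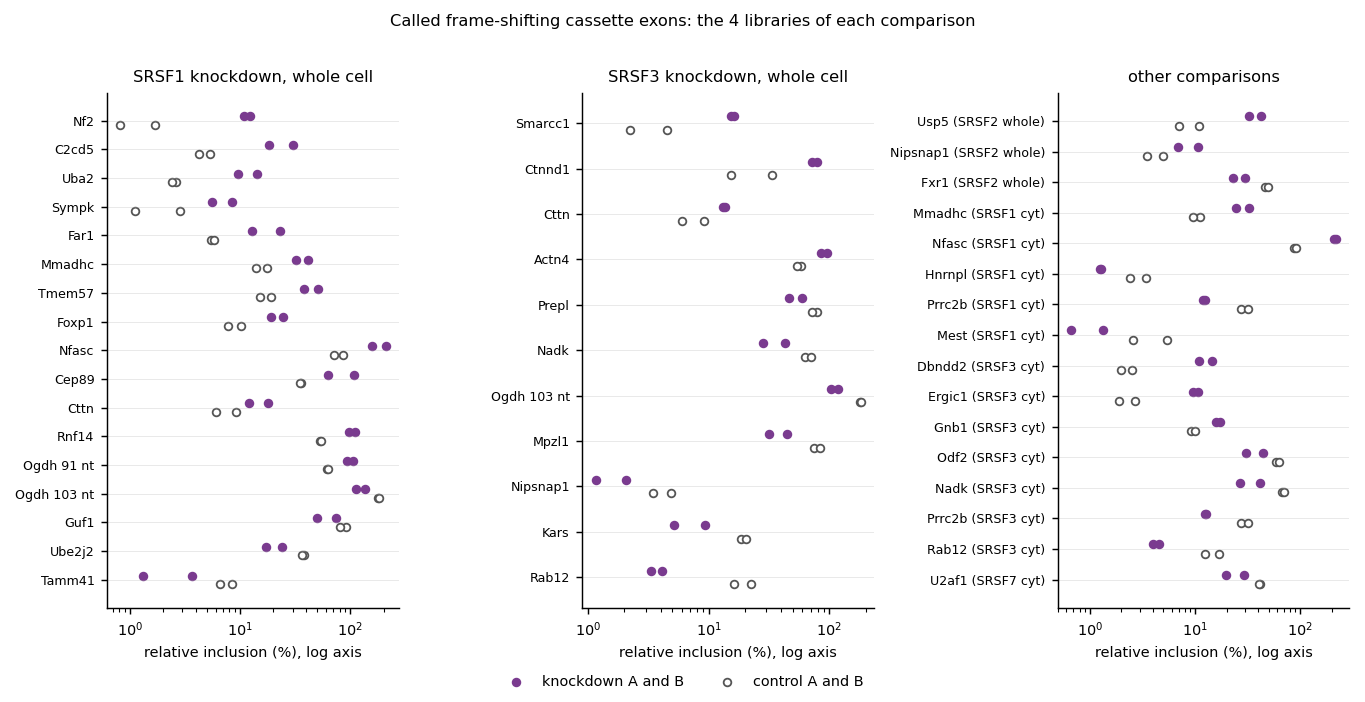
Relative inclusion (%, log axis) of called frame-shifting exons, on a line each. Of the 54 calls 46 had a value and 44 are drawn. Filled points are knockdown A and B and open points below them control A and B. Smarcc1 after SRSF3 knockdown, for example, is at 15.3% and 16.3% against 2.23% and 4.49%.

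In the cytoplasm SRSF3 knockdown raised 7 members and lowered 4, with a lowering of Nadk and Rab12 shared with the whole cell. The rises were in exons of few reads. The 62-nt exon of Tmem39a had 19 and 19 reads in the knockdown cytoplasm, against 0 and 1 in the control (log2 3.76, SE 0.58, limma adjusted p = 4.19e-05), a share of the gene's reads 32.9 times as large with a 95% counting interval of 5.55 to 1332. Sh2b3, which encodes the signaling adaptor LNK, had 13 and 17 reads, against 1 and 1 (log2 2.52, SE 0.60, adjusted p = 0.0504), a ratio of 9.91 with an interval of 2.51 to 85.6. Ergic1, a gene of a secretory pathway membrane protein, had its 121-nt exon at 9.46% and 10.6%, against 2.7% and 1.9% (log2 2.34, SE 0.51, adjusted p = 0.0176), and the decay-target exon of the joined Dbndd2 and Sys1 gene ID was at 10.8% and 14.4%, against 2.53% and 1.98% (log2 2.39, SE 0.60, adjusted p = 0.0768). Gnb1, which encodes a G protein beta subunit, had its 49-nt 5′ UTR exon at 17.3% and 15.7%, against 9.07% and 10.1% (log2 0.84, SE 0.21, adjusted p = 0.069). Exons of the joined gene IDs of Emc1 and Ubr4 (log2 1.74) and of Bcorl1 (1.46, adjusted p = 0.0758, and 0.109 with the block) made up the 7.

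Odf2 and Prrc2b were the other 2 falls in the cytoplasm. Odf2 encodes a protein of centriole appendages, and its 101-nt coding exon was at 44.7% and 30.4% after SRSF3 knockdown, against 58.2% and 62.7% (log2 -0.70, SE 0.17, adjusted p = 0.029). The Prrc2b exon was at 12.8% and 12.4%, against 27.1% and 31.7% (log2 -1.28, SE 0.32, adjusted p = 0.038), close to its level after SRSF1 knockdown, which was read against the same controls. A fit that blocks on the letter called 34 members for SRSF3 in the cytoplasm (1.75% of all bins), and edgeR called 1 (103 of 153226 bins in all). The share of all bins is not given for the fits with a library left out. Dropping knockdown A gave 4 and dropping knockdown B 21, whereas dropping control A gave 0 and control B 1.

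SRSF2 knockdown changed 4 members in the whole cell, 3 of them upward. The Nipsnap1 poison exon, of a mitochondrial protein gene, was at 10.6% and 6.89%, against 4.91% and 3.46% (log2 1.13, SE 0.23, limma adjusted p = 0.0271). After SRSF3 knockdown the Nipsnap1 exon went the other way, at 1.16% and 2.05%, against the same control values (log2 -1.32, SE 0.30, adjusted p = 0.0389, and 0.115 with the block), the only member called in opposite directions in 2 knockdowns. Usp5, a deubiquitinase gene, had its 125-nt 5′ UTR exon at 42.6% and 32.6%, against 10.8% and 7.07% (log2 1.89, SE 0.36, adjusted p = 0.00327). The 92-nt exon of Fxr1, an RNA-binding protein gene of the fragile X family, fell to 22.9% and 29.9%, against 45.9% and 48.9% (log2 -0.79, SE 0.15, adjusted p = 0.013). With the block the count was 9 (0.177% of all bins), and edgeR called 1 (149 of 178974 bins in all). The limma count was lower on dropping any 1 library. In the cytoplasm no member was called by limma or edgeR. At an unadjusted p below 0.05 were 62 by limma (2.77%, against 2.38% of all bins) and 32 by edgeR (1.42%, against 0.967%). Members were called when knockdown B was left out, a fit in which the A library stands by itself and is assumed to vary like the controls. This A library is the one that lacks the other-tissue transcripts of the control's A library. The part of those transcripts in the calls of that fit was not tested.

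SRSF7 knockdown lowered 1 member in each fraction. In the cytoplasm it was the upstream exon of the U2af1 pair, described with its partner below. With the block 8 members were called in the whole cell (0.154% of all bins) and 4 in the cytoplasm (0.315%). The whole-cell count was 0 without knockdown A and 4 without control B. Without knockdown B or control A the whole-cell count was 1. The cytoplasmic call was lost on dropping any library other than knockdown B. The 1 member that edgeR called in the cytoplasm (23 of 147506 bins in all) was higher, hence a different exon.

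No member was called after SRSF4, SRSF5 or SRSF6 knockdown. Of all bins 0.00207%, 0.0027% and 0.00666% were called in the cytoplasm and 0%, 0% and 0.00328% in the whole cell. By limma 32, 45 and 56 members had an unadjusted p below 0.05 in the cytoplasm (1.42%, 1.95% and 2.38%, against 1.85%, 1.68% and 1.81% of all bins). In the whole cell 43, 54 and 75 did (1.46%, 1.84% and 2.52%, against 1.57%, 1.48% and 2.02%). edgeR called none either. It had 19, 14 and 22 at that p in the cytoplasm (0.838%, 0.599% and 0.933%, against 0.821%, 0.496% and 0.67% of all bins). Its whole-cell counts were 20, 21 and 44 (0.678%, 0.71% and 1.47%, against 0.732%, 0.68% and 1.06%). The exon of Kars was among the 3 smallest p-values in 5 of these 6 comparisons. After SRSF6 knockdown it was at 6.16% and 10.7% in the cytoplasm, against 19.1% and 14% (log2 -0.94, adjusted p = 1). The whole-cell values for SRSF6 were 5.87% and 13.7%, against 18.5% and 20.5% (log2 -1.07, SE 0.21, adjusted p = 0.168). With the letter as a block Kars passed after SRSF6 knockdown in both fractions (adjusted p = 0.0864 and 0.0251), where 0.0759% and 0.0159% of all bins were called, and it was the single member called there. Leaving out 1 library for SRSF6 gave 1 call in the cytoplasm without knockdown B and 2 in the whole cell without control B. In the A libraries the exon was below its B value in the SRSF4, SRSF5, SRSF6 and SRSF7 knockdowns in both fractions, for example 7.31% in A and 18.5% in B of the SRSF4 whole cell. Smarcc1 stood next to Kars for SRSF6 in the whole cell, at 8.14% and 7.13%, against 2.23% and 4.49% (log2 1.25, SE 0.28, adjusted p = 0.315).

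**Figure D4:**
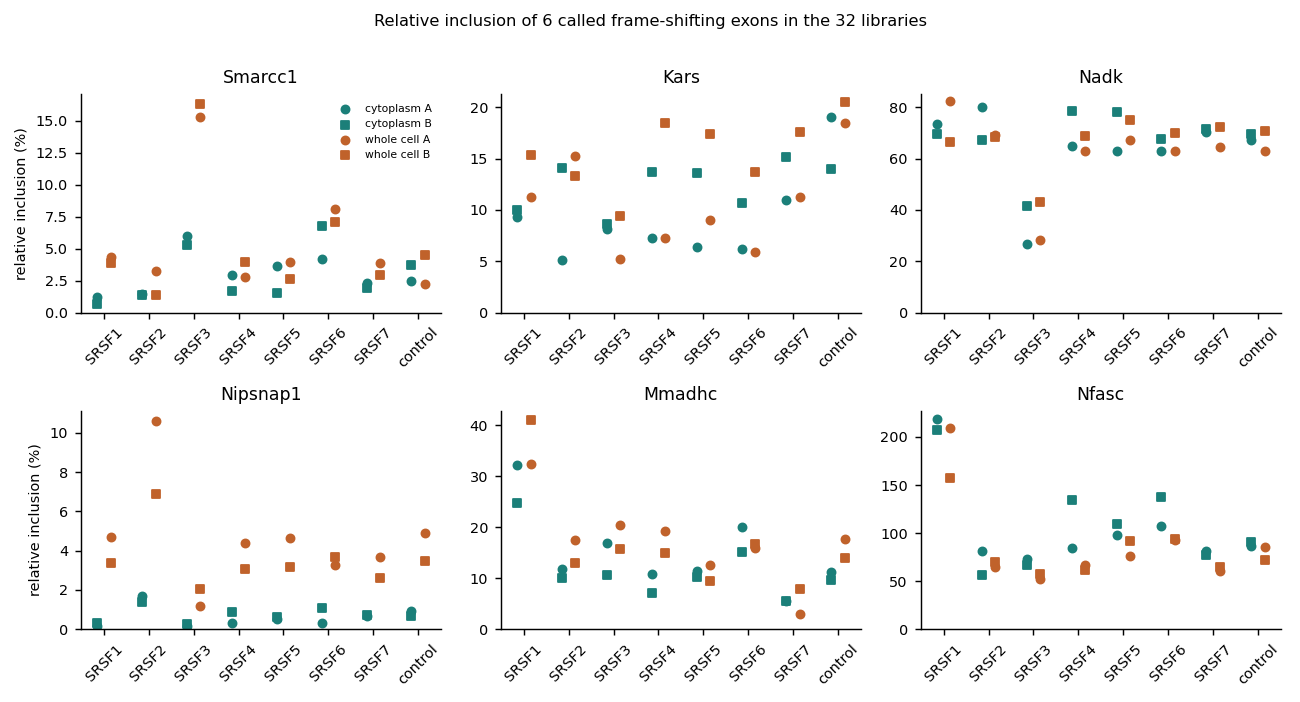
Relative inclusion (%, vertical axis) of 6 called frame-shifting exons in all 32 libraries, the 7 knockdowns left of the control. Green points are cytoplasmic and orange points whole-cell libraries, with circles for A and squares for B. Nadk stays at 62.8% or more outside the SRSF3 knockdown and is at 26.8% to 43.2% in it, and Nfasc and Mmadhc are highest after SRSF1 knockdown.

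Whether a knockdown acts differently in the 2 fractions was asked with the interaction, the change in the cytoplasm minus that in the whole cell. Only the Tmem39a exon was called, after SRSF3 knockdown (log2 2.51, SE 0.52, limma adjusted p = 0.0709), 1 member where 0.00636% of all bins were called. In the whole cell Tmem39a had 18 and 19 reads in the knockdown, against 10 and 7. The call was lost with edgeR, with a mean of at least 10 and without knockdown A of the cytoplasm, knockdown B of the whole cell, control A or B of the cytoplasm or control A of the whole cell. For the other 6 knockdowns 0 members were called by limma and edgeR. Of all bins limma called 0.00117% (SRSF1), 0% (SRSF2), 0% (SRSF4), 0.00116% (SRSF5), 0% (SRSF6) and 0.00114% (SRSF7). At an unadjusted p below 0.05 were 41 to 68 members by limma (1.49% to 2.43%, against 1.29% to 1.94% of all bins). By edgeR 24 to 49 were (0.856% to 1.77%, against 0.851% to 1.34%). Without knockdown B of the cytoplasm 12 members were called for SRSF2, and without control B of the whole cell 1 for SRSF7.

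Some members are 1 of a pair of exons that stand in each other's place. In these pairs no annotated transcript holds both exons, and each exon's share of the pair's reads per length can be followed. Ogdh, the gene of a subunit of the citric acid cycle enzyme 2-oxoglutarate dehydrogenase, has a 91-nt and a 103-nt exon, both with a remainder of 1, so that their exchange keeps the frame. The 103-nt exon took 51.9% and 59.5% of the Ogdh pair in the whole cell after SRSF1 knockdown, against 74.5% and 74.5% in the control, and its usage fell (log2 -0.62, SE 0.14, limma adjusted p = 0.0163) while that of the 91-nt exon rose (0.64, SE 0.15, adjusted p = 0.0442). After SRSF3 knockdown it took 45.8% and 52.9% (log2 -0.95, SE 0.19, adjusted p = 0.00509), with the 91-nt exon at 0.69 (adjusted p = 0.223, and 0.032 with the block). The cytoplasm held similar shares, at 54.6% and 59% after SRSF1 and 52.9% and 57.9% after SRSF3 knockdown, against 70.7% and 73.9%, where neither exon was called, although the 91-nt exon passed for SRSF1 with the block (log2 0.61, adjusted p = 0.0139). SRSF2 knockdown gave the highest shares of the 103-nt exon, 83.3% and 83.7% in the whole cell, which did not pass (log2 0.13).

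In U2af1 the upstream exon, labeled exon 3 above, took 13.2% and 20% of its pair in the cytoplasm after SRSF7 knockdown, against 28.4% and 27.9% in the control (log2 -0.76, SE 0.15, limma adjusted p = 0.0907). Its partner had a log2 change of 0.36 (adjusted p = 1). In the whole cell the upstream exon took 19.5% and 25.7%, against 32.6% and 35.3% (log2 -0.64, adjusted p = 0.443, and 0.0632 with the block). SRSF2 knockdown had the highest shares of the upstream U2af1 exon, at 44.9% and 39.2% in the cytoplasm and 49.5% and 48.5% in the whole cell, with a log2 change in the whole cell of 0.63 that did not pass (adjusted p = 0.25).

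Actn4, Far1 and Pkm have pairs of equal length. The 86-nt exon 11 of Actn4, an actin crosslinker gene, took 45.5% and 48.6% of its pair in the whole cell after SRSF3 knockdown, against 28.9% and 26.1% (log2 0.79, SE 0.21, limma adjusted p = 0.085), while its partner was at -0.48 (adjusted p = 0.991). In Far1 the second exon took 16% and 9.16% of the pair in the whole cell after SRSF1 knockdown, against 4.35% and 4.56%. The cytoplasmic libraries of this knockdown and of the control held no read of it, with 20 and 8 reads in the other exon after knockdown and 19 and 21 in the control. Over all 16 cytoplasmic libraries its share ran from 0% to 11.1%. Pkm encodes pyruvate kinase M, whose upstream 167-nt exon gives the adult muscle form M1 and whose downstream one the form M2 of growing cells. The M1 exon took 4.86% to 10.7% of the Pkm pair in the cytoplasm, against 5.93% to 12.6% in the whole cell, lowest after SRSF1 knockdown in both, at 5.93% and 6.64% in the whole cell against 10.4% and 8.94% (log2 -0.58, SE 0.15, adjusted p = 0.108, and 0.0407 with the block).

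**Figure D5:**
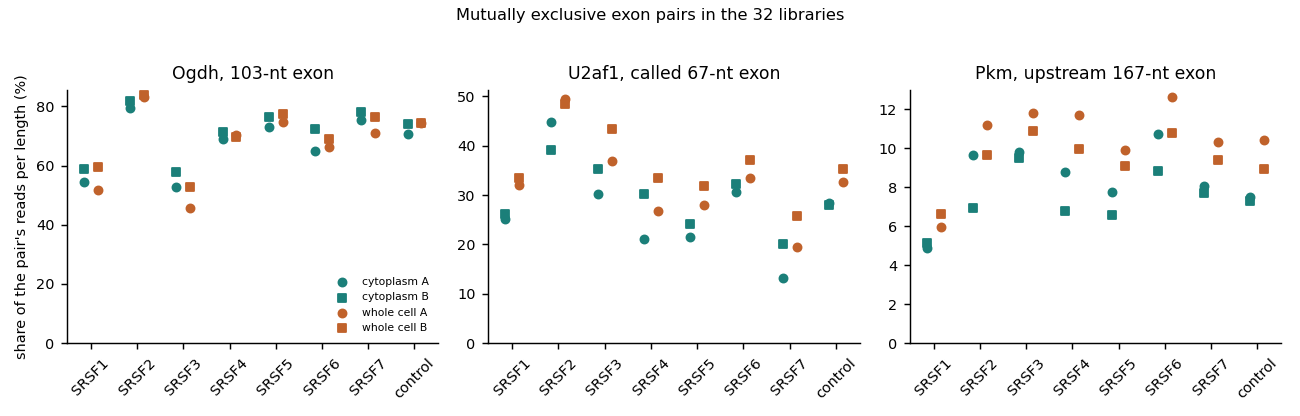
Share (%) of the pair's reads per length taken by 1 exon of 3 pairs with no shared transcript, in all 32 libraries, the 7 knockdowns left of the control. Green points are cytoplasmic and orange points whole-cell libraries, with circles for A and squares for B. The Ogdh exon sits at 45.8% to 59.5% after SRSF1 and SRSF3 knockdown and at 64.8% or more in the other groups.

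Lists of genes for RNA processing held few members with a call. Over all 14 knockdown comparisons Hnrnpl (SRSF1, cytoplasm) and U2af1 (SRSF7, cytoplasm) were the only list members called among all that were tested, the second of them in the list of the core spliceosome (11 tested there) and in that of known frame-shifting exons (8). The lists are not complete: Sympk, called after SRSF1 knockdown in the whole cell, is in none of them. Between the fractions 46.7% of all bins were called, 21.4% higher and 25.2% lower, and no list was tested against these shares. Of the list members 1 was higher and 6 were lower of 8 tested in SR proteins and relatives, 8 and 4 of 22 in hnRNP and tissue splicing regulators, 2 and 4 of 16 in the core spliceosome, 1 and 7 of 16 in mRNA export and 4 and 5 of 14 in known frame-shifting exons. With a mean of at least 20 these were 1 and 4 of 5, 6 and 3 of 18, 2 and 3 of 12, 1 and 6 of 15, and 3 and 2 of 8. In the exon junction complex 0 were higher and 2 lower of 2, in cleavage and polyadenylation 0 and 1 of 4, and in nonsense-mediated decay 0 and 0 of 2. Thoc2, of the THO complex that couples transcription to export, gave 3 of the lower exons of the export list (exons 20, 21 and 25, log2 -0.63, -0.65 and -0.89). Nup214, a nucleoporin gene, gave the higher one (exon 34, log2 1.05, SE 0.13, adjusted p = 4.78e-15). SR protein kinases had 2 members. Both were tested in the whole-cell knockdown comparisons and 1, in Clk4, between the fractions (log2 -0.10, SE 0.22, adjusted p = 0.767), and neither was called.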

How the data were processed

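P19 poly(A)+ libraries were compared as 7 knockdowns against a GFP esiRNA control in the whole cell and in the cytoplasm. Per the labels, the submitters' processing notes name Cufflinks 2.1.1, Bowtie2 2.1.0, CASAVA 1.8.2, TopHat2 2.0.10 and 2.0.9, and cutadapt (no version). The exon-bin tables are a signal that the authors deposited from DEXSeq, the reads of each bin divided by 1 factor per library, on mm10. To recover reads, the values of each library were divided by the smallest of them above 0, taken as 1 read. This gave whole numbers, to within 3.84e-09, for all values used. A second deposited signal, reads per gene that the authors scaled to a common depth, was used for gene symbols only. Gene totals, target levels and marker sums are sums over bins. The authors' own comparisons (columns and tables of DEXSeq, Cuffdiff and MISO) and the FPKM tables were not used.

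From the bin values, log2(value + 1) of bins with a mean of at least 5 was tested with limma 3.58.1 (diffSplice, vooma weights, 2 knockdown and 2 control libraries per comparison), adjusted by Benjamini-Hochberg over all bins and called below 0.1. edgeR 4.0.16 (diffSpliceDGE on recovered reads), another filter, pseudocount and threshold, all 16 libraries of a fraction in 1 fit, no joined gene IDs, the replicate letter as a block and each library left out were the alternatives. The test was checked on simulated data. Relative inclusion used reads over (length + 74) and flanking exons within 5 exons with a mean of at least 50 reads. It assumes 75-base reads in every library, although some libraries may have longer reads. Counting intervals and floors (3 reads) cover counting error only. The use of strand in counting is not stated in those notes, so antisense genes cannot be told apart.

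Calls and p-values come from the fit without the replicate letter. A fit with the letter as a block is given beside results it changes, since the A minus B differences of bin levels correlated between all 28 pairs of groups (Spearman 0.343 to 0.789 in the cytoplasm, against 0.177 to 0.686 in the whole cell, 63962 bins). The labels give only the letters. Named are up to 10 called members per direction with values that do not overlap, the 3 smallest p-values where none was called, members called in several comparisons, called list members, and 10 per direction between the fractions. Some called exons are counted but not reported here. The members and lists were chosen with earlier results of these data known. R 4.3.3 and Python 3.11.15 with pandas 2.3.3, numpy 2.4.6, scipy 1.17.1 and matplotlib 3.10.9 were used.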

Additional observations from a re-analysis of the deposited data

Results flagged for a closer look

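The 62-nt exon of Tmem39a changed differently in the 2 fractions after SRSF3 knockdown, by a log2 of 2.51 (SE 0.52, limma adjusted p = 0.0709, a test of the difference itself). It rests on 38 reads in the knockdown cytoplasm, against 1 in the control.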

How the results depend on the processing

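Of the 54 calls, 17 were kept in every alternative other than leaving out a library, counting only alternatives in which the exon was tested. Smarcc1 after SRSF3 knockdown in the whole cell was the 1 call kept in all of them, and none reversed. Among the settings, 22 were kept with edgeR, 35 at an adjusted p below 0.05, 43 with no filter, 50 with a pseudocount of 0.5 and 50 with the block. A mean of at least 10 kept 43 and lost 6, all libraries of a fraction kept 34 and lost 15, and no joined gene IDs kept 48 and lost 1. The remaining calls were not tested in those 3 settings. Counts of members moved by over 1.5 times as follows. At an adjusted p below 0.05 they were 3 (SRSF1, cytoplasm), 8 (SRSF1, whole cell), 7 (SRSF3, cytoplasm) and 0 (SRSF7, cytoplasm). With all libraries of a fraction they were 2 (SRSF2, cytoplasm), 0 (SRSF7, cytoplasm), 1 (SRSF6, whole cell) and 4 (SRSF7, whole cell). edgeR gave 0 (SRSF1, cytoplasm, 61 of 149585 bins in all), 1 (SRSF3, cytoplasm, 103 of 153226), 1 (SRSF2, whole cell, 149 of 178974) and 0 for the SRSF3 interaction (0 of 173732). A mean of at least 10 gave 6 (SRSF3, cytoplasm), 2 (SRSF7, whole cell) and 0 for the SRSF3 interaction, and no filter 8 (SRSF1, cytoplasm), 0 (SRSF7, cytoplasm), 7 (SRSF2, whole cell) and 22 (SRSF3, whole cell). The controls by themselves gave 305 between the fractions. Apart from edgeR, the share of all bins called is not given for the settings of this paragraph. Their counts therefore cannot be set against a background. The cause of these shifts was not tested.

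With the replicate block, which pairs the letters, the counts were 23 (SRSF1), 34 (SRSF3), 1 (SRSF6) and 4 (SRSF7) in the cytoplasm. Of all bins 0.908%, 1.75%, 0.0759% and 0.315% were called there. For the whole cell the counts were 8 (SRSF7), 1 (SRSF6) and 9 (SRSF2), where 0.154%, 0.0159% and 0.177% of all bins were called. For usage itself the A minus B differences correlated less between groups, with Spearman values of -0.0882 to 0.333 for the cytoplasm, against -0.0431 to 0.236 for the whole cell.

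Leaving out 1 library gave 1 to 13 (SRSF1), 0 to 43 (SRSF2), 0 to 21 (SRSF3), 0 to 1 (SRSF6) and 0 to 1 (SRSF7) in the cytoplasm, 4 to 9 (SRSF1), 0 to 3 (SRSF2), 2 to 20 (SRSF3), 0 to 2 (SRSF6) and 0 to 4 (SRSF7) in the whole cell, and 0 to 12 (SRSF2), 0 to 1 (SRSF3) and 0 to 1 (SRSF7) for the interaction. The share of all bins called is not given for these fits, so their counts cannot be set against a background. With 2 libraries a group and exons of few reads, smaller changes may not be detectable at this depth.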
